A study of Mus musculus with 4 samples.

Results

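The genes described here are 8 transcripts of the neuroendocrine hypothalamus, namely the peptide genes Avp, Oxt, Trh, Gal and Cartpt, the transcription factor genes Sim1 and Otp, and Baiap3. They were picked because several of them stood out in APP cortex in an earlier look at the same libraries, so their difference between groups is given below as a description, without a test. Of the 8 listed genes 6 had counts, 5 found by their symbol in the deposited table and Baiap3 by its transcript identifiers alone, out of 18386 genes in all. Otp and Gal were not analysed here. The counts come from cortical samples of 2 male APPswe/PS1ΔE9 mice (libraries APP-3 and APP-4) and 2 male WT mice (libraries WT-1 and WT-2), all aged 12 months and on a C57BL/6 background. The APP mice carry a human mutant amyloid precursor protein gene together with a presenilin 1 gene that lacks exon 9, both expressed from the mouse prion protein promoter, which is active in neurons throughout the brain and in other cells. The WT mice carry neither transgene. The transgenic label held in both APP libraries, since App, on which reads of the transgene can be counted, reached 2679 and 2388 CPM (counts scaled to a common library size) against 857.3 and 905.4 in WT, and Prnp, whose promoter the transgenes use, 1856 and 1622 CPM against 526.5 and 535.1. The libraries held between 28525117 and 43881196 counts. The APP libraries differed from each other in striatal markers (summed level 277 CPM in APP-3 and 569 CPM in APP-4), so the value of each library is given below for the members.

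Vasopressin (Avp) and oxytocin (Oxt) are peptide hormones made in magnocellular neurons of the paraventricular and supraoptic nuclei and released from their axons in the posterior pituitary. Sim1, a basic helix-loop-helix PAS protein that pairs with Arnt2, is required for these neurons and for the thyrotropin-releasing hormone (Trh) neurons of the paraventricular nucleus to form, and Otp is a homeodomain protein needed by the same lineages. Cartpt encodes the cocaine- and amphetamine-regulated transcript peptides, which are made in the hypothalamus but also in many other regions, and Baiap3, a protein of the Munc13 family, takes part in the release of dense-core vesicles, the carriers of neuropeptides. In the cortex of adult mice vasopressin, oxytocin and Sim1 transcripts are normally scarce, while Trh, Cartpt and Baiap3 have cortical expression of their own.

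Avp and Oxt are neighbours and paralogs, and their sequences are shown first because they decide how well the reads of the pair can be told apart. In GRCm38 Avp lies on the minus strand of chromosome 2 (chr2:130580620-130582554) and Oxt on the plus strand (chr2:130576173-130577054), so that the genes are transcribed towards each other with 3565 bases between their ends. Each counted transcript has 3 exons, with 577 nt for Avp and 537 nt for Oxt. The hormone itself is encoded in exon 1 by 9 codons, at chr2:130582446-130582472 for Avp and chr2:130576267-130576293 for Oxt (GENCODE M21). In the 27 bases below, written 5′ to 3′ on the coding strand, capitals mark the 5 bases at which the genes differ.
Avp nonapeptide codons: tgctacTtccagaactgcccAAGAggc
Oxt nonapeptide codons: tgctacAtccagaactgcccCCTGggc
The differences are few here, and the neurophysin carrier that follows is closer still. A run of 127 bases of coding sequence, bases 144 to 270 of the Avp transcript and 156 to 282 of the Oxt transcript, is identical in both, and it is printed once because a read within it cannot be placed on one gene by itself.
Shared run of Avp and Oxt: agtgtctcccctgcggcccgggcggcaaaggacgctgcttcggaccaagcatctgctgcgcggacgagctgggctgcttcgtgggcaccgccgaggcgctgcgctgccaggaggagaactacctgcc
Most of the run, 125 bases in each gene, lies in exon 2. Over 301 aligned bases the transcripts were 88.0% identical. With reads of 100 bases and the 7 mismatches that the alignment allowed, 119 of the 478 windows of Avp (24.9%) also matched Oxt, and 119 of the 438 windows of Oxt (27.2%) also matched Avp. How reads that match both genes were counted was not stated in the sources used here, and a mate outside the similar stretch can place a pair, so the counts of each gene are uncertain by an amount that the deposited counts do not show.

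**Figure D1:**
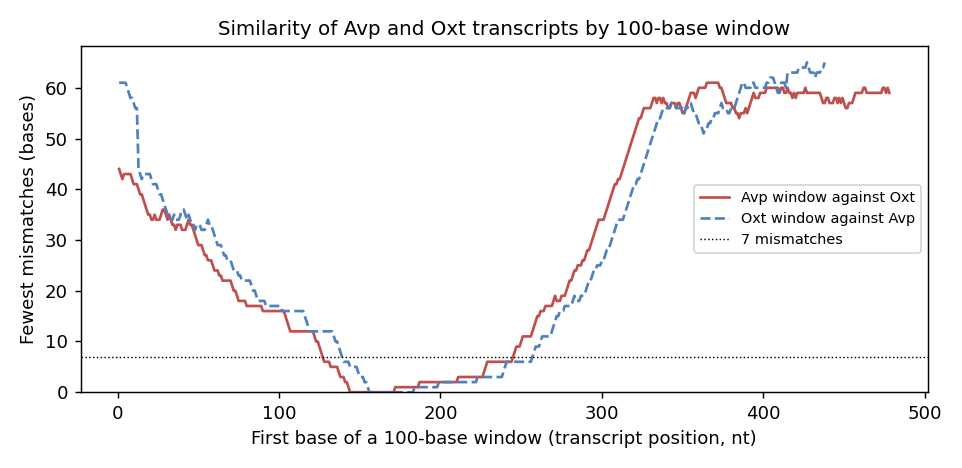
For each 100-base window of a transcript (x axis, first base in nt), the fewest mismatches (y axis, bases) to any window of the other gene's transcript, for Avp (solid line) and Oxt (dashed line), with a dotted line at 7 mismatches. In both genes the 119 windows at or under the line sit in 1 block in the middle of the transcript, and the 5′ and 3′ parts differ by more.

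The 250 bases before the RefSeq start of each of the same 2 genes (GRCm38.p6, strand of the gene) are shown because both genes were high in the same libraries. In the Avp promoter (chr2:130582589-130582838, minus strand) capitals mark ACGTG on either strand, the letters that Sim1 paired with Arnt2 is known to bind. In the Oxt promoter (chr2:130575919-130576168, plus strand) capitals mark TGACC on either strand, the letters that nuclear hormone receptors bind as part of a longer element.
Avp promoter: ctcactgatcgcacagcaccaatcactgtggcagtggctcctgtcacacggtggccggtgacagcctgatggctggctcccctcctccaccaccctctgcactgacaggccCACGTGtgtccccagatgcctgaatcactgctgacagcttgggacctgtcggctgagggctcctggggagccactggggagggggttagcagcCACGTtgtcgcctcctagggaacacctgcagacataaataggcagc
Oxt promoter: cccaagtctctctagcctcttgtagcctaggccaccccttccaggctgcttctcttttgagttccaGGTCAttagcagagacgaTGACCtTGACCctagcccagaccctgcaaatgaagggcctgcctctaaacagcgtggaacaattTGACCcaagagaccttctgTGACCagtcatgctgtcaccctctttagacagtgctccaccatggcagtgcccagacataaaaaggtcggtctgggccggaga
The first motif was found 3 times in the Avp promoter, where 2 of the matches are the overlapping strands of an E-box palindrome, CACGTG. It was found 0 times in the promoters of Oxt, Sim1, Trh, Cartpt and Baiap3. Of 32817 RefSeq promoters of this length, 16.6% hold the motif on one strand or the other, and 6.0% hold the palindrome. The motif marked in Oxt was found 5 times in the Oxt promoter and once each in those of Cartpt and Trh, and 35.2% of all promoters hold it. These matches describe the sequence, and binding was not measured.

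In the APP libraries Avp, Oxt and Sim1 transcripts were counted in each mouse, and in the WT libraries they were nearly absent. Library APP-3 held 18 reads of Avp and APP-4 held 102, against 2 for WT-1 and 0 for WT-2. Scaled to library size by TMM, this was 0.620 and 3.29 CPM in APP and 0.0455 and 0 CPM in WT. Both APP libraries lay above both WT libraries, and the APP libraries were themselves far apart. The means were 1.96 ± 1.89 CPM for APP and 0.0228 ± 0.0322 for WT (SD, n = 2), a ratio of 86.0, and the ratio of the pooled counts was 79.4 with a 95% interval of 21.5 to 663 (exact conditional binomial). Here the counts of the 2 mice of a group were pooled. The interval covers counting error only, as do all intervals below, since each is computed from read counts and leaves out the spread between mice. The reads carry no molecular identifiers, so copies of 1 molecule could be counted more than once. Since the tissue was profiled in bulk, a different number of cells of a type and a different amount of RNA per cell cannot be told apart.

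Oxytocin transcripts were fewer, with 12 reads of Oxt for APP-3, 22 for APP-4, 0 for WT-1 and 1 for WT-2. In CPM these were 0.414 and 0.710 in APP and 0 and 0.0282 in WT, and the groups did not overlap. The ratio of the group means, 0.562 ± 0.210 to 0.0141 ± 0.0200 CPM (SD, n = 2), was 39.8, and the pooled counts gave 45.0 with an interval of 7.55 to 1829. Of the peptide genes Oxt rested on the fewest reads, 34 in APP and 1 in WT.

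Sim1, the transcription factor, is a gene of 11 exons in the counted transcript of 7355 nt (chr10:50894754-50989152, plus strand). Its reads numbered 29 for APP-3 and 34 for APP-4, against 2 for WT-1 and 0 for WT-2. Unlike Avp, it was alike in the APP libraries, at 1.0 and 1.10 CPM. The WT libraries held 0.0455 and 0 CPM. The means of 1.05 ± 0.0694 and 0.0228 ± 0.0322 CPM (SD, n = 2) differed by a ratio of 46.1, and the pooled ratio was 41.7 with an interval of 11.1 to 352. Its closest transcript by sequence, that of Sim2, was 77.9% identical over 1066 aligned bases.

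Leaving out single libraries moved the Avp ratio most. Without APP-4 the ratio of means of Avp was 27.3, and without APP-3 it was 145. Without WT-1, whose 2 reads are the only ones in WT, Avp was at least 23.1-fold higher and Sim1 at least 12.4-fold higher in APP, against 3 counts in WT-2. Without WT-2 the same ratios were 42.99 and 23.1, and Oxt was at least 8.23-fold higher. Without WT-1 the ratio of Oxt was 19.9. In each case APP was higher, and the size moved both with the APP library left out and with the 0, 1 or 2 reads of a WT library.

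These 3 genes are in the table because of the APP libraries, as the table holds transcripts with at least 10 mapped reads and WT gave them 2, 1 and 2. Of all 18386 genes, 67 (0.364%) had at most 3 counts in each WT library, these 3 members among them. With so few WT reads the 3 members had to be higher in APP to enter the table, so no share over such genes is read as a result.

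Trh, the precursor gene of thyrotropin-releasing hormone (chr6:92242061-92244650, minus strand, 1384 nt), was counted in every library and was higher in APP. Its reads numbered 61 for APP-3, 103 for APP-4, 43 for WT-1 and 22 for WT-2, or 2.10, 3.33, 0.979 and 0.621 CPM. The lower APP library stood at 2.15 times the higher WT library. The means of 2.71 ± 0.865 and 0.800 ± 0.253 CPM (SD, n = 2) gave a ratio of 3.39, and the pooled ratio was 3.34 with an interval of 2.49 to 4.52. Leaving out 1 library at a time, the ratio ranged from 2.63 without APP-4 to 4.37 without WT-1.

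Cartpt (chr13:99898489-99901091, minus strand, 827 nt) was the member whose groups overlapped. Its reads numbered 87 for APP-3, 132 for APP-4, 129 for WT-1 and 113 for WT-2. In CPM the lowest value, 2.94, was that of WT-1, followed by 2.999 in APP-3, 3.19 in WT-2 and 4.26 in APP-4. The ratio of the means, 3.63 ± 0.893 to 3.06 ± 0.178 CPM (SD, n = 2), was 1.19, with a pooled interval of 0.993 to 1.44. Without APP-4 the ratio was 0.979, so the small difference rested on that library.

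Baiap3 (chr17:25242659-25256364, minus strand) had the highest CPM of the members in APP-3, APP-4 and WT-1, and in WT-2 it lay just below Cartpt. Its 2 counted transcripts together held 324 reads for APP-3, 381 for APP-4, 250 for WT-1 and 104 for WT-2, or 11.2, 12.3, 5.69 and 2.93 CPM. The APP libraries were close to each other and the WT libraries were not, with a WT-1 to WT-2 ratio of 1.94 (interval 1.54 to 2.46). The ratio of the means, 11.7 ± 0.802 to 4.31 ± 1.95 CPM (SD, n = 2), was 2.72 and the pooled ratio was 2.64 (2.32 to 3.003). It fell to 2.06 without WT-2 and was 4.0 without WT-1, with both WT values below both APP values. The transcripts of 3630 nt and 4645 nt gave ratios of 2.79 and 2.54. The shorter one took 77.8% and 73.8% of the gene's counts for the APP libraries and 74.4% and 73.1% for the WT libraries, so the make-up of the gene differed little between libraries. The longer transcript overlaps Tsr3 on the other strand by 140 bases at its 3′ end, and Tsr3 had between 7.39 and 9.31 CPM in every library. Whether the counting used strand was not stated in the sources used here.

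**Figure D2:**
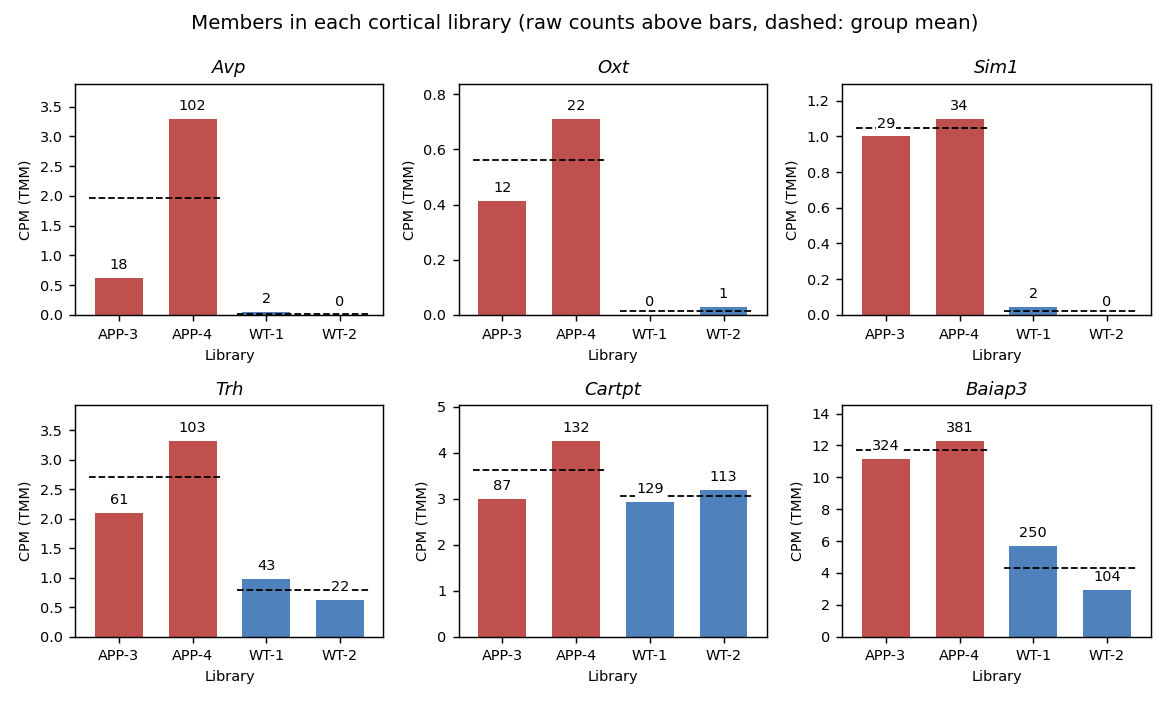
CPM after TMM scaling (y axis, from 0, a separate scale for each gene) of the 6 counted members in libraries APP-3, APP-4, WT-1 and WT-2 (x axis), with raw counts above the bars and dashed lines at the group means. Avp, Oxt and Sim1 have at most 2 counts in a WT library, Trh and Baiap3 are lower but present in WT, and the Cartpt groups overlap.

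Of the 6 counted members, 5 had both APP libraries above both WT libraries and a ratio of at least 1.5. Over all genes 21.3% had non-overlapping groups with APP higher and 21.4% with APP lower, and 6.98% had a ratio of at least 1.5. The median log2 ratio of the members was 3.54, beside a median log2 fold change of -0.001 over all genes. Since the members were selected on this contrast, these counts describe the selection and nothing is read from them.

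Levels of different genes were compared per kilobase of transcript, with the longer transcript for Baiap3. In APP the order by mean level was Cartpt (4.39 CPM per kb), Avp (3.39), Baiap3 (2.53), Trh (1.96), Oxt (1.05) and Sim1 (0.143). In WT it was Cartpt (3.70), Baiap3 (0.928), Trh (0.578), Avp (0.0394), Oxt (0.0263) and Sim1 (0.00309). Neighbours in the APP order were not separated where Avp was involved, because Avp was at 1.08 CPM per kb in APP-3, below Trh (1.52) and Baiap3 (2.40), and at 5.71 in APP-4, above Cartpt (5.15). The libraries of Baiap3 (2.40 and 2.65) and Trh (1.52 and 2.40) nearly met in APP, and in WT they overlapped (1.23 and 0.632 against 0.707 and 0.448). Most Baiap3 counts fell on its shorter transcript, so the longer length understates its level. The near meeting and the overlap with Trh depend on that choice of length. Sim1 was the lowest in the APP libraries, and in WT the levels of Avp, Oxt and Sim1 rest on 0 to 2 reads each and have no order.

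The APP libraries were then set against each other, since they are from separate columns of 1 group. Avp was 5.31-fold higher in APP-4 than in APP-3, with an interval of 3.20 to 9.31. The interval of Oxt, 0.814 to 3.81 around a ratio of 1.72, overlapped that of Avp, and the shared run limits how finely the pair can be separated. Sim1 and Baiap3 differed between the libraries by less than counting error, with ratios of 1.10 (0.649 to 1.87) and 1.10 (0.947 to 1.28). Trh and Cartpt lay between, at 1.58 (1.14 to 2.21) and 1.42 (1.08 to 1.89). All 6 ratios were above 1, as were those of 50.2% of the 17033 genes with at least 20 counts in the pair, and 2.33% of these genes had a ratio of at least 2. The interval of Avp lay above those of Sim1, Trh, Cartpt and Baiap3, and the other intervals overlapped that of Sim1. These intervals hold counting error only, while the libraries come from separate mice.

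**Figure D3:**
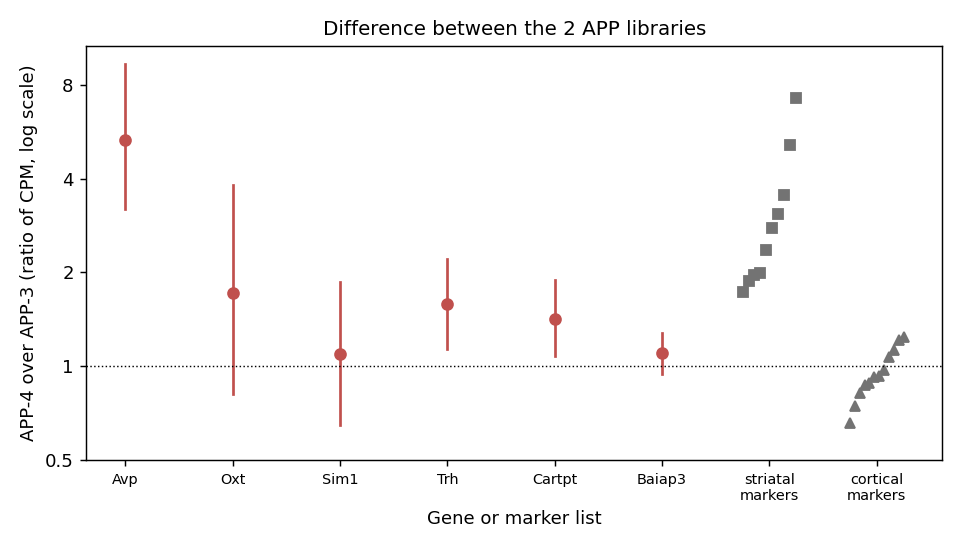
Ratio of CPM in APP-4 to CPM in APP-3 (y axis, log scale) for the 6 counted members, with 95% counting intervals as bars, and for the single genes of the striatal list (squares) and the cortical list (triangles), drawn in rising order within a list. Avp, at 5.31, stands well above 1, Sim1 and Baiap3 are at 1.10, the 10 striatal genes run from 1.73 to 7.27, and the 12 cortical genes from 0.658 to 1.25.

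Other genes moved between the APP libraries beside Avp. All 10 striatal markers were higher in APP-4, by a median ratio of 2.57, and their summed level was 277 CPM in APP-3 and 569 CPM in APP-4 against 374 to 431 CPM in WT. Drd2, the dopamine receptor of indirect-pathway neurons, was counted 25 times in APP-3 against 194 times in APP-4. The pituitary hormone genes Gh (growth hormone) and Prl (prolactin) held 45 and 16 reads for APP-4 and 2 and 0 for APP-3, with 6 and 2 for WT-1 and 0 and 0 for WT-2. Pmch, the precursor gene of melanin-concentrating hormone, a peptide of the lateral hypothalamus, went the other way, with 15 reads for APP-4 and 46 for APP-3, and 7 and 5 for the WT libraries. Drd2, Prl and Pmch were named after their values were seen. Gh and Prl were highest in the library in which Avp was highest, and the striatal sum was lowest in APP-3, where the Sim1 level was within counting error of that in APP-4. The part that other brain regions or pituitary tissue in the samples had in the member counts was not tested.

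The rest of the pathway was described with lists of genes, tested by edgeR's quasi-likelihood method over all genes with Benjamini-Hochberg adjustment, as are all adjusted p-values below. The cut-offs were an FDR under 0.05 and a change of 1.5-fold or more, and 0.881% of all genes passed both cut-offs, 0.843% with APP higher and 0.0381% with APP lower. No share over all genes was computed at an unadjusted p under 0.05 or for direction alone. Such counts below are a description, and nothing is read from them. Of the receptors of these peptides 5 of 9 were counted and 4 were not analysed here. Galr1, a receptor of the peptide galanin, was higher in APP, at 1.38 and 1.55 CPM against 0.364 and 0.282 in WT (log2 fold change 2.16, standard error 0.36, adjusted p = 0.0305). Trhr, a receptor of Trh, had 5.38 and 6.43 CPM in APP and 3.78 and 2.96 in WT and did not pass (log2 fold change 0.80, standard error 0.18, adjusted p = 0.0978). Trhr2, another Trh receptor named after its values were seen, went the other way. It had 1.10 and 1.16 CPM in APP and 1.27 and 1.89 in WT (log2 fold change -0.47, standard error 0.30, adjusted p = 0.592). Oxtr, the oxytocin receptor, was at 5.44 ± 0.432 CPM for APP and 5.44 ± 0.316 for WT (SD, n = 2). The receptor list thus had 1 call, with a median log2 fold change of 0.80, which was 0.09 without APP-4 and 0.40 when each library had to hold 10 counts of a gene. Their summed level was 13.2 to 15.4 CPM in APP and 10.4 to 11.3 CPM in WT. Without WT-2 the count was 0, and without APP-3 or APP-4 it was 2.

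Among 23 other peptides of the hypothalamus 11 were counted and 12 were not analysed here. None of the 11 was called (0 by edgeR's quasi-likelihood test, 2 at an unadjusted p under 0.05, 1 by DESeq2 and 2 each by edgeR's exact and likelihood ratio tests), and the median log2 fold change was 0.06, which was -0.03 without APP-4 and -0.06 without WT-1. The most abundant of them are also made in cortex and striatum. Penk, the enkephalin precursor gene, had 34.3 CPM in APP-3 and 80.5 in APP-4, on either side of the WT values of 59.7 and 61.9. Tac1, which encodes substance P, had 20.4 and 33.5 CPM in APP and 23.1 and 17.1 in WT. The 2 genes at an unadjusted p under 0.05 were Pmch (log2 fold change 2.74, standard error 0.67, adjusted p = 0.121) and Nts, the neurotensin gene (0.83, standard error 0.21, adjusted p = 0.144), both named after their values were seen.

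Of 19 transcription factors of the hypothalamus other than Sim1 and Otp, 11 were counted and 8 were not analysed here. The number past both cut-offs was 0 by edgeR's quasi-likelihood test, DESeq2 and edgeR's exact and likelihood ratio tests alike. By the quasi-likelihood test 3 had an unadjusted p under 0.05. Arnt2 and Pou3f2 were lower in APP, and Lhx9, named after its values were seen, was higher (log2 fold change 1.28, standard error 0.43, adjusted p = 0.257). The median log2 fold change of the 11 counted genes was 0.12, which was -0.10 without APP-4. Their summed level was 194 to 202 CPM in APP and 214 to 223 CPM in WT, lower in APP and without overlap. Most of this sum came from Arnt2 and Pou3f2. Of the 11 genes 7 had a log2 fold change above 0 and 4 below, so the sum does not give the direction of most of the list. Arnt2, the partner of Sim1, had 151 and 140 CPM in APP and 165 and 161 in WT (log2 fold change -0.16, standard error 0.07, adjusted p = 0.371). Pou3f2, which acts downstream of Sim1 in the paraventricular nucleus, was at 40.5 ± 1.76 CPM for APP and 47.0 ± 3.34 for WT (SD, n = 2; adjusted p = 0.308). Both genes are also widely expressed in cortex.

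The list of other genes enriched in the hypothalamus gave no call by edgeR's quasi-likelihood test. Of its 19 genes 16 were counted, and 13 of these had a fold change above 0 on the log2 scale, with a median of 0.44. Their summed level was 161 CPM in APP-3 and 179 in APP-4 against 127 to 132 CPM in WT, so the groups did not overlap. Most of this sum came from Hap1 and Zcchc12. The number past both cut-offs was 0 (edgeR's quasi-likelihood test), and DESeq2 called 1 and edgeR's exact and likelihood ratio tests 4 each. By the quasi-likelihood test 10 genes had an unadjusted p under 0.05, among them Lepr, which was lower in APP. Zcchc12, a transcriptional coactivator gene, rose from 27.9 ± 1.54 CPM in WT to 41.0 ± 0.576 in APP (SD, n = 2) and passed the FDR but not the fold cut-off (log2 fold change 0.56, standard error 0.08, adjusted p = 0.0142). Hap1, the gene of a huntingtin-associated protein, had 69.1 ± 8.55 and 53.6 ± 3.25 CPM (SD, n = 2; adjusted p = 0.140). The imprinted genes Dlk1 and Magel2 and the insulin receptor substrate gene Irs4, named after their values were seen, had log2 fold changes of 1.70, 1.60 and 1.43 with adjusted p of 0.0942, 0.113 and 0.0960. The 3 counted genes below 0, also named after their values were seen, were Asb4, Ghsr and Lepr. Their log2 fold changes were -1.07, -0.61 and -0.40, with adjusted p of 0.637, 0.844 and 0.246. The part of such genes in the member counts was not tested.

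Genes that cut and pack peptides gave no call. All 17 were counted and 0 were called (edgeR's quasi-likelihood, exact and likelihood ratio tests and DESeq2 alike). By the quasi-likelihood test 5 had an unadjusted p under 0.05, each of them lower in APP, and the median log2 fold change was -0.10. Cpe, the carboxypeptidase that trims peptide precursors, was at 1093 ± 16.7 CPM for APP and 1036 ± 35.7 for WT (SD, n = 2; adjusted p = 0.670), and Pcsk2, a prohormone convertase gene, had 331 ± 18.7 and 392 ± 10.7 (adjusted p = 0.185). In the Munc13 family, to which Baiap3 belongs, all 4 Unc13 genes were counted and 0 passed by any of these tests or had an unadjusted p under 0.05. Unc13a was at 249 ± 8.41 CPM for APP and 248 ± 5.92 for WT (SD, n = 2), and Unc13c had 59.2 and 102 CPM in APP-3 and APP-4 against 71.5 and 59.8 in WT. Baiap3 was higher in APP than in WT and these relatives had a median log2 fold change of 0.05.

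Markers of the tissue itself and of its neighbours were set beside these values. All 12 markers of cortical neurons were counted, and their sum was 794 to 810 CPM in APP and 899 to 912 CPM in WT. None passed both cut-offs (0 by each of the 4 tests, 5 at an unadjusted p under 0.05), and Slc17a7, the main vesicular glutamate transporter gene of cortex, was at 318 ± 6.07 CPM for APP and 387 ± 6.75 for WT (SD, n = 2; adjusted p = 0.0818), while Rorb, a gene of layer 4, had 105 ± 5.11 and 116 ± 2.40 (adjusted p = 0.411). All 10 thalamic markers were counted, with a sum of 120 to 122 CPM in APP and 92.3 to 95.6 CPM in WT and a median log2 fold change of 0.38. Calb2, the calretinin gene, which cortical interneurons also express, was the 1 call, at 9.03 and 11.6 CPM in APP and 4.96 and 4.85 in WT (log2 fold change 1.07, standard error 0.16, adjusted p = 0.0176). Slc17a6, a glutamate transporter gene of thalamus and hypothalamus, was at 39.8 ± 4.41 CPM for APP and 30.9 ± 1.74 for WT (SD, n = 2; adjusted p = 0.142), and Ntng1 had 31.1 ± 3.82 and 26.5 ± 0.962 (adjusted p = 0.391). The thalamic sums did not overlap between groups, and neither did those of the receptors and the hypothalamus-enriched genes, which were higher in APP, or of the transcription factors, the peptide processing genes and the cortical markers, which were lower. The transcription factor sum was mostly that of Arnt2 and Pou3f2. Likewise, Hap1 and Zcchc12 made up most of the hypothalamus-enriched sum, and Slc17a6 and Ntng1 most of the thalamic sum. Oxtr and Trhr made up most of the receptor sum, and Slc17a7 and Rorb most of the cortical sum. Of all single genes, 21.3% had non-overlapping groups with APP higher and 21.4% with APP lower. No such share was computed for sums of lists, so nothing is read from their lack of overlap.

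The summed levels of striatal, choroid plexus and pituitary markers overlapped between the groups. Of the 10 striatal genes 0 passed or had an unadjusted p under 0.05, with a median log2 fold change of 0.04 that was -0.72 without APP-4 and 0.51 without APP-3, and Pde10a (133 and 249 CPM in APP, 159 and 193 in WT) ran from below to above WT. Of 9 choroid plexus genes 6 were counted, with 0 called, 0 at an unadjusted p under 0.05, and sums of 7.62 to 8.33 CPM in APP and 5.94 to 8.29 CPM in WT. Its most abundant genes were Clic6 (1.76 and 4.33 CPM in APP, 1.46 and 2.17 in WT) and Kl (2.48 and 2.03 in APP, 2.57 and 2.37 in WT). Of 10 pituitary genes 3 were counted and 0 were called, with 1, Gh, at an unadjusted p under 0.05. Pou1f1, a pituitary transcription factor gene, was at 3.94 ± 0.313 CPM for APP and 3.86 ± 0.111 for WT (SD, n = 2). DESeq2 and the exact and likelihood ratio tests also gave 0 for each of the 3 lists.

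**Figure D4:**
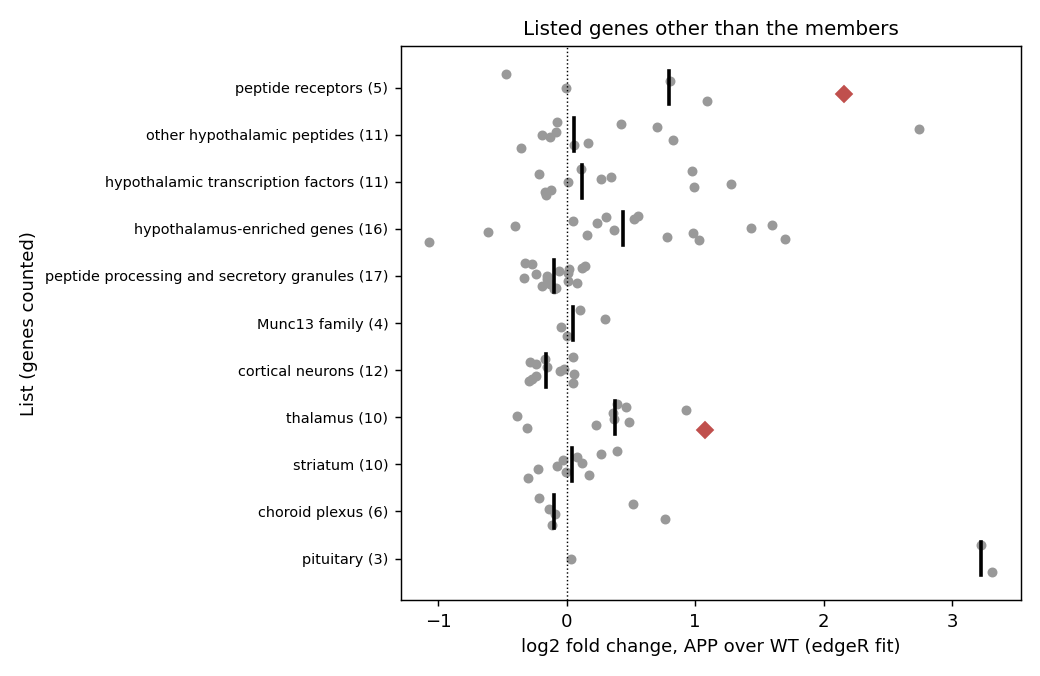
Log2 fold change of APP over WT from edgeR's quasi-likelihood fit (x axis) for each counted gene of the 11 lists (y axis, number of counted genes in brackets), with black bars at the medians and red diamonds for genes past both cut-offs. Galr1 and Calb2 are the only diamonds, the hypothalamus-enriched and thalamic lists have medians of 0.44 and 0.38, and the cortical list one of -0.16.

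The genes whose profile over the 4 libraries was nearest to that of the members were found by Euclidean distance of centred log2 CPM to the members' median profile, over 18299 genes with at least 20 counts. The median profile itself was 0.84 and 1.54 for APP-3 and APP-4 and -1.02 and -1.24 for WT-1 and WT-2. It lay between unlike members, whose log2 ratios of APP to WT ran from 0.25 for Cartpt to 6.43 for Avp. Likeness to the median profile is therefore not likeness to Avp, Oxt or Sim1. The 5 nearest were A730046J19Rik (distance 0.409), 4930486L24Rik (0.45), Lyz2 (0.467), Cd300c2 (0.467) and Lyz1 (0.469). Lyz2, a lysozyme gene of myeloid cells, held 591 and 689 reads for the APP libraries and 244 and 150 for the WT libraries. Lyz1 is a near-identical copy, and its 10 and 16 counts in APP and 4 and 2 in WT may be shared with Lyz2. With 4 points in a profile, many genes with any APP-high pattern lie close, and likeness is given here as a description only.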

How the data were processed

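From the cortex of 2 APP and 2 WT mice the authors removed ribosomal RNA and sequenced the rest as strand-specific read pairs of 100 bases. The authors aligned reads to Ensembl mouse transcripts with FANSe2 (release not given in the sources used here), allowing 7 mismatches, and deposited raw read counts for 37539 transcripts with at least 10 mapped reads. The submitters' processing notes name CASAVA 1.8, edgeR and a human build, hg19, whose role is unclear. The deposited fold changes, p-values and FDR are the authors' own comparison and were not used, nor were 4 per-library columns of log2 values. The WT columns match their samples by number, and the APP columns only their group. The labels do not say how animals were assigned to litters or days, and p-values measure only the spread between these libraries.

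Counts were summed per gene by transcript identifier in GENCODE M21 (98.2% matched) and not, as first planned, by symbol, since 8274 transcripts have none. Library totals ran from 28525117 to 43881196, with TMM factors from 0.987 to 1.017. Analyses used R 4.3.3, edgeR 4.0.16 and DESeq2 1.42.0, Python 3.11.15 with pandas 2.3.3, numpy 2.4.6 and scipy 1.17.1, and blastn 2.17.0. edgeR's quasi-likelihood test was fitted over 18386 genes. It was first run with the function's legacy option off, which gave 179 calls, and was then set to the version's default, with 162 calls, after the first count had been seen. Counts of 18386 genes were also simulated from the mean levels and library totals of these data, with changes in genes above 1 CPM. In them 98% of 100 simulated 2-fold changes, 100% of 100 simulated 4-fold changes and 2 unchanged genes were called. Every simulated gene had the same dispersion, 0.008, while real genes differ in spread. The recovery therefore does not carry over to the real genes and lists.

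Members, lists and tests were chosen with earlier results of these data known. Genes named in the text were the members, the genes of each list past both cut-offs, the 2 of each list with the highest mean CPM, App and Prnp, and the 5 nearest profiles. Others are marked, and 1 gene that this choice includes is not reported here. The alternatives comprised DESeq2, the exact test and the likelihood ratio test of edgeR, library totals, scaling over protein-coding genes, a stricter and no count filter, and leaving out each library. The symbol sums, the legacy option and calls without single libraries were added once the data were known. Sequences come from GENCODE M21 transcripts and RefSeq promoters.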

Additional observations from a re-analysis of the deposited data

How the results depend on the processing

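For the 6 members, every scaling (library totals, DESeq2 size factors, protein-coding genes) and the use of protein-coding transcripts alone kept the direction of the ratio and moved it by less than the spread between libraries. The single reversal was Cartpt, with a log2 ratio of 0.25 with all libraries and from -0.03 (without APP-4) to 0.48 without single libraries. The number of genes called over the whole table depended more on the test. It was 162 in edgeR's quasi-likelihood fit, 179 with the legacy option off, 202 by DESeq2, 225 with counts summed per symbol, 354 by the exact test and 391 by the likelihood ratio test, and from 134 to 601 without single libraries, highest without APP-3 and 478 without APP-4. The exact and likelihood ratio tests gave 2 receptors, 2 other peptides, 4 hypothalamus-enriched genes and 2 thalamic genes, and DESeq2 1 other peptide and 1 hypothalamus-enriched gene. Without single libraries, where the lone library is taken to vary like the other group, the calls ranged from 0 to 2 for receptors, from 0 to 3 for other peptides, from 0 to 2 for transcription factors, from 0 to 3 for hypothalamus-enriched genes, from 0 to 1 for the Munc13 family and the choroid plexus, from 1 to 4 for thalamus, from 0 to 7 for striatum (7 lower without APP-4, 2 higher without APP-3) and from 0 to 2 for pituitary. The median log2 fold changes of the transcription factors and of the pituitary genes turned to -0.10 and -0.10 without APP-4 and reached 0.24 and 6.09 without WT-1. Other medians near 0 changed sign too. That of the other peptides, 0.06, was -0.03 without APP-4, -0.06 without WT-1 and -0.07 under the stricter count filter. That of striatum, 0.04, was -0.72 without APP-4, -0.06 without WT-1, -0.01 with symbol sums and 0.51 without APP-3, and that of the choroid plexus, -0.10, ran from 0.02 to 0.63 without single libraries. The receptor median, 0.80, ran from 0.09 (without APP-4) to 0.99 without single libraries and was 0.40 under that filter. The cause of these shifts was not tested. No paired analysis was made, because the labels pair no APP mouse with a WT mouse. The APP columns also carry the numbers 3 and 4, which the labels do not use. The depth limits Avp, Oxt and Sim1 most, as their WT level rests on at most 2 reads in a library.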
